A study of Mus musculus with 6 samples.

Results

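The RNAs described here are the 71 fragments of nuclear tRNA-Leu and tRNA-Ile among the 2380 small RNAs that the authors' deposited table names. They were chosen by name: the name holds tRF or tiRNA, carries no prefix for mitochondrial tRNA, and ends in a tRNA whose amino acid is Leu or Ile. tRNA-Leu gave 50 of them, 35 tRF5 and 15 5'tiRNA fragments. tRNA-Ile gave 21, with 10 tRF5, 6 5'tiRNA, 3 tRF3 and 2 3'tiRNA fragments. By anticodon they belong to LeuTAA (23 fragments), LeuCAG (10), LeuAAG (7), LeuTAG (7), LeuCAA (3), IleTAT (10), IleAAT (9) and IleGAT (2). The RefSeq nuclear tRNA genes counted for these isoacceptors held 0 for IleGAT, so its 2 fragments are called nuclear by name only. Each fragment was read by a probe of its own, found by matching the deposited fold change and p-value to values recomputed per probe. The number after the type in a name, such as 18 in tRF5-18-IleAAT-5, is read here as a length in bases, and the last number as a tRNA gene or gene group. The fragment sequences were not used here.

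The groups were hippocampus of PS19 mice, a tauopathy model transgenic for human P301S tau, and hippocampus of wild-type (WT) mice, with 3 arrays each (6 in total). Tissue of both groups was homogenised, crosslinked with ultraviolet light and incubated with an antibody to tau phosphorylated at S396 on magnetic beads. RNA of the pull-down (CLIP) was labelled with Cy5 and RNA of the remaining supernatant with Cy3, and both were hybridised to the same 2-colour small RNA array. The labels give no age, no sex, no promoter of the transgene and no number of animals per sample, so p-values measure only the spread between these samples. There was no pull-down with a control antibody and no array with the dyes exchanged, so a bias of dye or beads cannot be told apart from binding to tau.

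Transfer RNAs are cut into defined pieces. A tRF5 is a short piece from the 5' end of the mature tRNA, and a tRF3 is a short piece from its 3' end. The longer 5'tiRNA and 3'tiRNA, come from a cut in or near the anticodon loop, for which the stress-responsive ribonuclease angiogenin is known. A tRF5 and a 5'tiRNA of the same tRNA share their first bases, and tRF5 fragments of 1 tRNA that differ in length are nested in each other, so their probes can read some of the same molecules. tRNA-Leu and tRNA-Ile are used here with all the anticodons listed above. tRNA-Leu has a long variable arm, and in mammals the genes of tRNA-Ile with anticodon TAT carry an intron. Some tRNA fragments are known to bind RNA-binding proteins and to reduce translation.

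The arrays differed in signal, and this touches every CLIP value below. In the CLIP channel, 70, 67 and 69 of the 71 fragments were well above background on PS19 1, PS19 2 and PS19 3, against 0, 68 and 25 on WT 1, WT 2 and WT 3. The 3 PS19 arrays and WT 2 thus measured nearly all fragments, while WT 1 measured none and WT 3 the lesser part. All 71 were well above background on at least 3 CLIP arrays, as were all 695 fragments of other nuclear tRNAs. As WT 1 measured none of the 71, each of them needed a PS19 array to reach 3. High PS19 counts were thus partly fixed in advance, and no genotype difference is read from them. No fragment was well above background on all 6 arrays in the CLIP channel, while 63 of the 695 fragments of other nuclear tRNAs were, and WT 1 had 77 of those 695. On the same array, all 3 full-length tRNA-Leu probes were well above background. In the supernatant the counts were 71, 61 and 66 on the PS19 arrays and 68, 71 and 56 on the WT arrays, and 48 fragments were well above background on all 6. The scans also differed: PS19 1 shared a scan with WT 2, PS19 2 with PS19 3, and WT 1 and WT 3 were scanned alone. CLIP levels correlated by 0.964 to 0.977 within a scan and by 0.687 to 0.852 between scans, over all RNAs tested. Of the neuronal microRNAs listed as markers, 3 of 5 were named, and 2 to 3 of them were well above background in the supernatant of each array. Of the listed oligodendrocyte and muscle microRNAs, 1 of 3 each was named and was well above background in the supernatant of all 6 arrays. Of the choroid plexus microRNAs 1 of 3 was named, and it was well above background in the supernatant of some arrays. Their part in the results was not tested. None of the listed microglial or blood microRNAs was named.

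**Figure D1:**
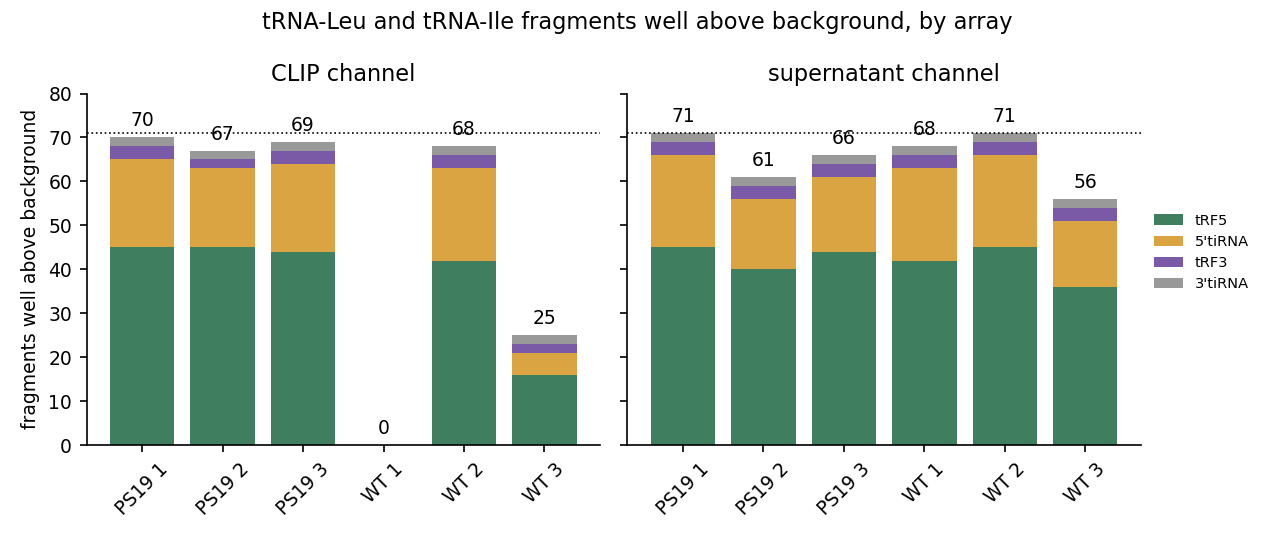
Number of tRNA-Leu and tRNA-Ile fragments well above background on each array (x axis), in the CLIP channel (left) and the supernatant channel (right), stacked by fragment type; the dotted line marks all 71. In the CLIP channel the PS19 arrays reach 67 to 70, while WT 1 stands at 0 and WT 3 at 25.

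The first comparison asked whether these fragments differed in the pull-down between PS19 and WT hippocampus. None of the 71 passed the test on the CLIP level, which is the log2 Cy5 signal minus the array's 75th percentile over RNAs detected on all arrays (limma with Benjamini-Hochberg adjustment, lowest adjusted p = 0.773). None of the 2356 RNAs tested passed either (0.0%). In bulk tissue, fewer cells holding an RNA and less of it per cell cannot be told apart. The fit pooled the spread over RNAs, so that every fragment had a standard error of 1.04 on the log2 scale. The median difference of the fragments was 1.03, PS19 minus WT, beside 0.85 for all RNAs tested. The shift of all RNAs depends on the scaling, from -0.03 to 1.17 among the scalings tried, so differences are given relative to the median RNA where a sign matters. Relative to it the fragments lay 0.18 higher, with 48 of 71 above it, and the 694 tested fragments of other nuclear tRNAs lay 0.18 higher too, with 440 above it. The value for the 71 was 0.17 without WT 1 and 0.08 without WT 3. Within the scan that held both genotypes (PS19 1 minus WT 2) it was 0.03, with 37 of 71 above the median RNA.

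An unadjusted p under 0.05 was reached by 3 of the 71 in the higher direction and 0 in the lower, against 1.91% and 0.255% of all RNAs tested. All 3 were tRF5 fragments of tRNA-Ile. tRF5-18-IleAAT-5, from the isoleucine tRNA whose first anticodon base is converted to inosine in the cell, had CLIP levels of -3.77, -2.66 and -4.30 in PS19 and -6.89, -5.39 and -6.65 in WT. The groups did not overlap, and all 3 WT values were not well above background. The means were -3.58 in PS19 and -6.31 in WT (n = 3 each; limma adjusted p = 0.773). Because WT has only a bound here, the level with the main processing was at least 2.52-fold higher in PS19. That is 0.49 on the log2 scale above the shift of the median RNA. Over the alternatives the log2 difference ran from 0.11 to 3.26, so the bound does not hold under each of them. The fragment passed the filter on dim RNAs only through the PS19 arrays.

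The 20-base form of the same piece, tRF5-20-IleAAT-5, had CLIP levels of -4.28, -4.48 and -4.67 in PS19 and -6.45, -6.02 and -8.19 in WT. The groups again did not overlap, and again none of the WT values was well above background. The limma adjusted p was 0.773. With the main processing the bound was at least 1.35-fold higher in PS19, which is 0.41 below the shift of the median RNA (log2 value -0.41). Over the alternatives the log2 difference ran from -0.0349 to 2.84. With the scan as a random block this fragment passed (limma adjusted p = 0.00536), and it was the only one of the 71 to do so. That call rests on WT values that were not well above background. In that fit 0.467% of all RNAs passed in the higher direction and 0.297% in the lower, and the adjusted p of this fragment was between 0.569 and 1.00 in the other alternatives except 0.0584 with array weights and 0.0852 without WT 2.

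tRF5-20-IleTAT-1 had CLIP levels of -2.48, -4.19 and -4.16 in PS19 and -6.64, -3.22 and -7.92 in WT. WT 2, which shared the scan of PS19 1, lay inside the PS19 range, and WT 1 and WT 3 lay far below it. The difference was 2.31 ± 1.04 (SE, n = 3 each; limma adjusted p = 0.773), and 0.74 within the shared scan; with normexp its sign turned (-0.00691). tRF5-22-LeuAAG-2, the tRNA-Leu fragment with the smallest p, showed the same pattern, with -3.48, -3.83 and -4.10 in PS19 and -6.17, -3.52 and -7.67 in WT. Its difference of 1.98 (limma adjusted p = 0.773) was 0.04 within the shared scan and -0.0174 with normexp. On WT 1 neither of these 2 fragments was well above background. On WT 3 only 1 of the 10 tRF5 fragments of tRNA-Ile and 1 of the 7 LeuAAG fragments were. Both differences thus rest in part on WT values at background level. Groups that did not overlap were found for 2 fragments in the higher direction, the IleAAT-5 forms, and for 0 in the lower (all RNAs tested: 4.33% and 0.934%). Without WT 2 the count was 60 of 71, beside 65.3% of all RNAs tested.

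tRF5-18-IleAAT-5, tRF5-20-IleAAT-5 and tRF5-22-IleAAT-1 were well above background in the CLIP channel on all 3 PS19 arrays and on 0 WT arrays. All 3 passed the filter on dim RNAs only through the PS19 arrays. WT 1 measured none of the 71, so the opposite pattern could not occur. Among fragments of other nuclear tRNAs, 12 of 695 had the same pattern. Over the whole array 28 of 10935 RNAs had it, all among the 2386 well above background on at least 3 CLIP arrays. RNAs detected on fewer arrays could not show the pattern, while all 71 and all 695 fragments were detected on at least 3. tRF5-22-IleAAT-1 had CLIP levels of -5.24, -4.82 and -5.11 in PS19 and -6.81, -5.22 and -8.18 in WT, and no fold is given because its bound was under 1. In the WT 2 array, which measured 68 of the 71, the 3 fragments not measured were these.

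**Figure D2:**
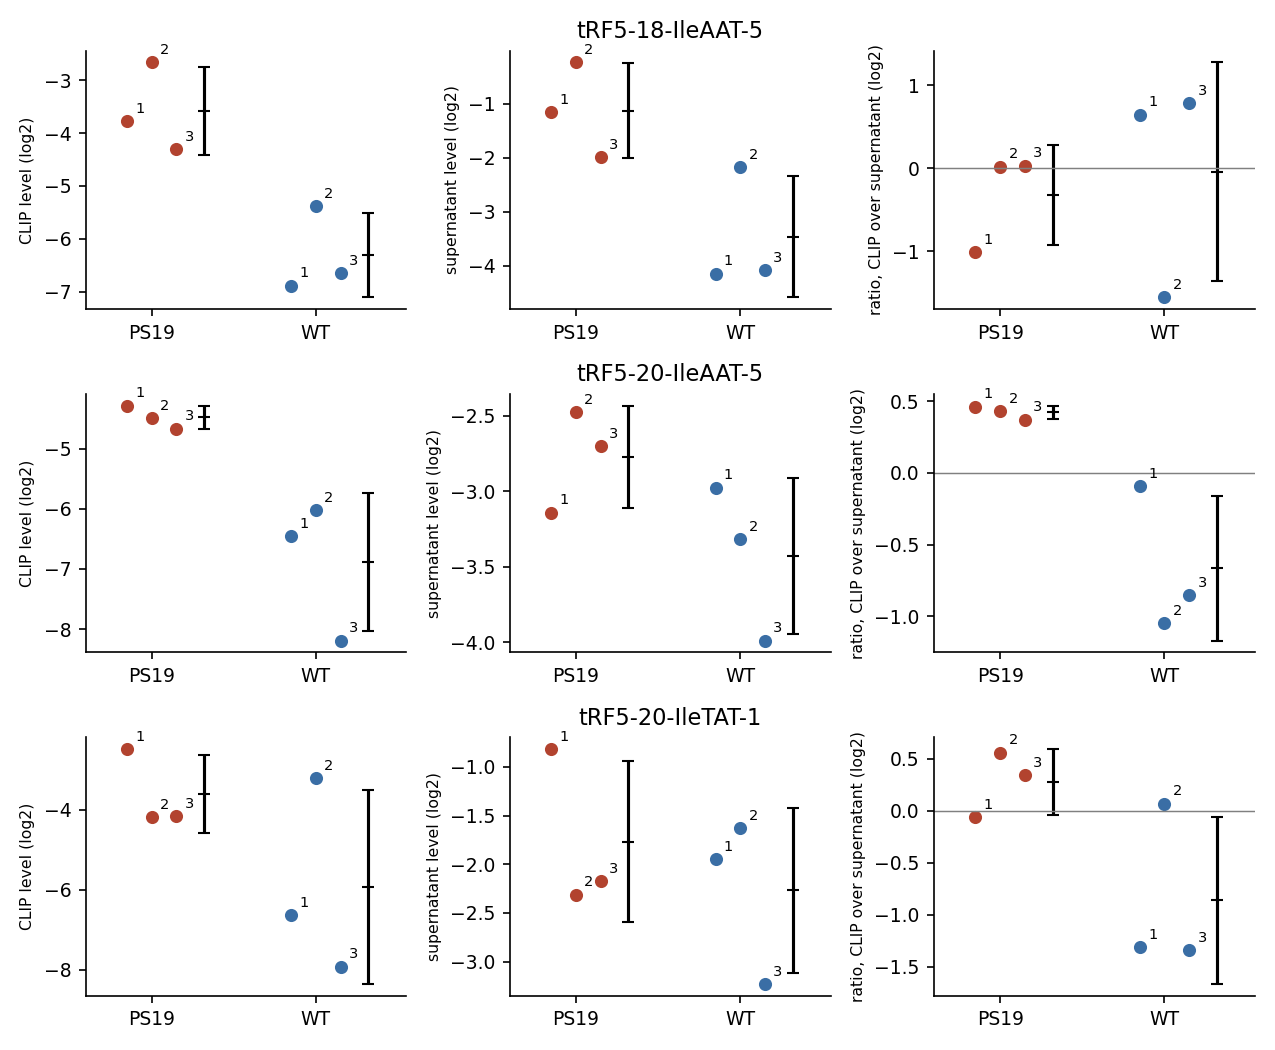
CLIP level, supernatant level and ratio (columns, log2) of the 3 tRNA-Ile fragments with the smallest p on the CLIP level (rows); points are single arrays numbered by replicate, PS19 left and WT right, and bars are the mean ± SD (n = 3). The points of both IleAAT-5 fragments do not overlap in the CLIP level, but none of their WT CLIP signals was well above background, so the WT points there and in the ratio stand for bounds.

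The second comparison asked the same of the supernatant, the RNA that stayed unbound. None of the 71 fragments and none of the 3727 RNAs tested (0.0%) passed (limma, lowest adjusted p of a fragment = 0.928). The median difference was 0.40, beside 0.10 for all RNAs, and 57 of 71 lay above the median RNA. Relative to that median the fragments lay 0.31 higher, 0.13 without WT 1, 0.14 without WT 3 and 0.09 within the shared scan, where 43 of 71 lay above it. For fragments of other nuclear tRNAs the value was 0.15, with 424 of 686 above the median RNA.

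tRF5-18-IleAAT-5 was the single fragment with an unadjusted p under 0.05 (1 higher and 0 lower of 71; all RNAs: 1.74% and 1.05%). Its supernatant levels were -1.16, -0.24 and -2.00 in PS19 and -4.15, -2.18 and -4.08 in WT. Every PS19 value lay above every WT value, and its signal exceeded background well on 3 arrays of PS19 and 1 of WT. The difference was 2.34 ± 0.70 (SE, n = 3 each; limma adjusted p = 0.928) and 1.02 within the shared scan. The 20-base form, tRF5-20-IleAAT-5, had -3.14, -2.48 and -2.70 in PS19 and -2.98, -3.32 and -3.99 in WT, and the groups overlapped. Its difference was 0.65 ± 0.38 (SE).

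Groups that did not overlap were more common here. They were found for 12 of the 71 fragments (16.9%) in the higher direction and for 0 in the lower, beside 7.32% and 3.01% of all RNAs tested. Their differences ran from 0.34 to 2.34, and none passed the test. Without WT 3 the count was also 12, beside 10.7% of all RNAs, and without WT 1 it was 18, beside 15.1%. Without WT 2 it was 26 (36.6%), beside 598 of the 3727 RNAs. The named examples beside tRF5-18-IleAAT-5 are tRF5-20-IleAAT-1 and 5'tiRNA-34-LeuTAA-5. tRF5-20-IleAAT-1 had supernatant levels of -2.27, -1.66 and -2.37 in PS19 and -2.69, -2.70 and -3.71 in WT (difference 0.93 ± 0.41, SE, n = 3 each; limma adjusted p = 0.928). Its WT 3 signal was not well above background. 5'tiRNA-34-LeuTAA-5, a longer 5' piece, had -1.87, -1.86 and -2.35 in PS19 and -2.85, -2.35 and -3.07 in WT (difference 0.73 ± 0.33, SE, limma adjusted p = 0.928). tRF5-20-LeuTAA-1 had -2.49, -2.31 and -3.07 in PS19 and -3.01, -3.33 and -3.85 in WT, and its groups overlapped by 1 pair of arrays (difference 0.77).

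The pieces from the 3' side stood at the low end in the supernatant. The 5 tRF3 and 3'tiRNA fragments, all of tRNA-IleTAT, had differences from -0.26 to -0.04. tRF3b-IleTAT-1 had the lowest, with -2.47, -2.12 and -2.47 in PS19 and -1.93, -2.57 and -1.79 in WT (difference -0.26, limma adjusted p = 0.928). The groups overlapped, and the difference was 0.10 within the shared scan. tRF3-19-IleTAT-2 (-0.10), 3'tiRNA-41-IleTAT-1 (-0.07) and tRF5-22-LeuTAA-1 (-0.11) were the other named fragments below 0. With no scaling, where the median RNA shifted by 0.87, these 4 differences lay between 0.51 and 0.71. WT 3 stood out among the arrays. Relative to the median RNA, the tRF3 median was 0.03, 0.39 and 0.25 in PS19 and 0.21, 0.37 and 1.36 in WT. The 3'tiRNA median was 0.28, 0.57 and 0.40 in PS19 and 0.06, 0.61 and 1.39 in WT. In other nuclear tRNAs WT 2 was the highest for both types (1.58 for tRF3 and 1.44 for 3'tiRNA).

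**Figure D3:**
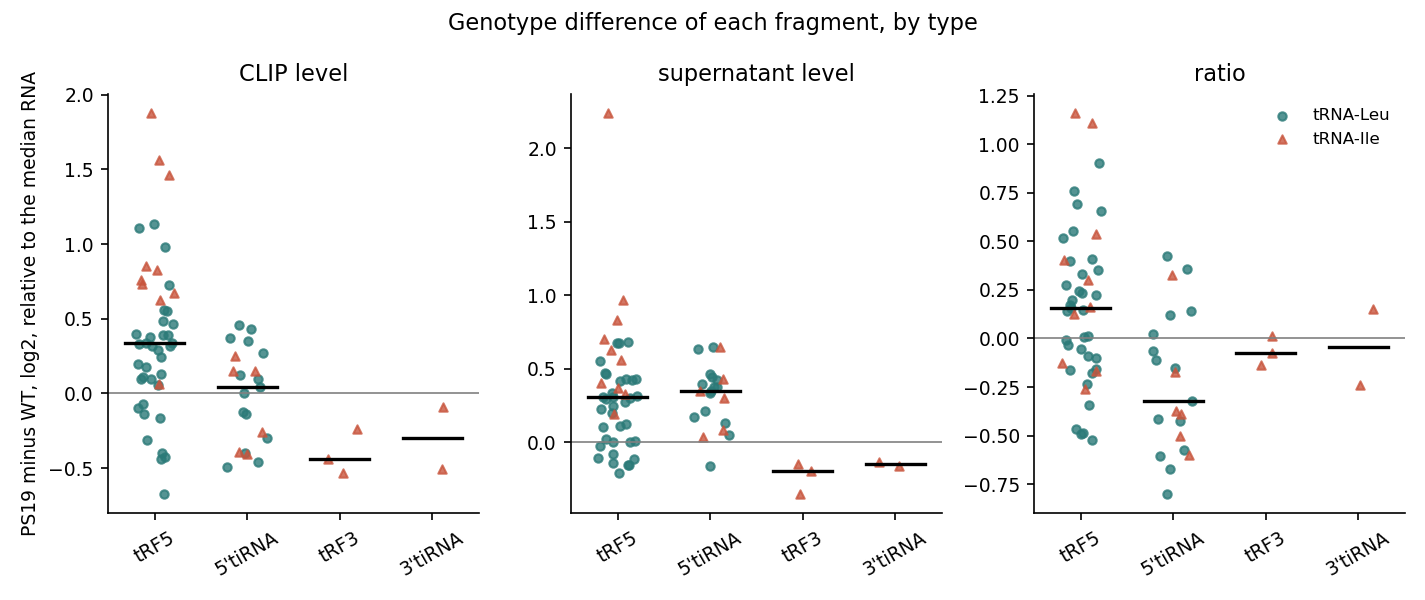
Difference PS19 minus WT of each of the 71 fragments (log2, relative to the median RNA tested) by fragment type, for the CLIP level (left), the supernatant level (middle) and the ratio (right); black lines are medians, circles tRNA-Leu and triangles tRNA-Ile. The highest points in the CLIP and supernatant panels are tRF5 fragments of tRNA-Ile, of which the IleAAT-5 forms had no WT CLIP signal well above background, and 5'tiRNA fragments have a median of -0.32 in the ratio panel.

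The ratio of CLIP over supernatant within an array, centred on the array's median RNA, asked whether the share of a fragment in the pull-down differed by genotype. None of the 71 passed, and none of the 3971 RNAs tested (0.0%; limma, lowest adjusted p of a fragment = 0.992). The median difference was -0.01, beside -0.02 for all RNAs, with differences from -0.82 to 1.14. Within the shared scan the median of the 71 was 0.11 below the median RNA (log2 value -0.11), with 28 of 71 above it. On WT 1 the CLIP signal of all 71 was not well above background, so its ratios hold a background-level numerator. On WT 3 only 25 of the 71 had a CLIP signal well above background, so most of its ratios do too. Among these 25 were 1 of the 10 tRF5 fragments of tRNA-Ile and 1 of the 3 LeuCAA fragments.

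An unadjusted p under 0.05 was reached by 2 fragments in the higher direction and 0 in the lower (all RNAs: 2.09% and 2.06%). tRF5-20-IleAAT-5 had ratios of 0.46, 0.43 and 0.37 in PS19 and -0.09, -1.05 and -0.85 in WT. The PS19 values lay close together above 0 and all WT values lay below 0, although no WT CLIP signal behind them was well above background, so that no fold is given. The ratio has only a bound, which lies below 0 (log2 value -0.89; limma adjusted p = 0.992), so a higher ratio in PS19 is not shown. For tRF5-18-IleAAT-5, the 18-base form, the ratios were -1.01, 0.02 and 0.03 in PS19 and 0.65, -1.55 and 0.79 in WT. Its values scattered on both sides of 0 in WT, and its bound also lies below 0 (-1.68).

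tRF5-20-IleTAT-1 had ratios of -0.06, 0.56 and 0.34 in PS19 and -1.31, 0.07 and -1.34 in WT. WT 2 lay inside the PS19 range. The difference was 1.14 ± 0.46 (SE, n = 3 each; limma adjusted p = 0.992) and -0.13 within the shared scan, so its sign turned there. tRF5-22-LeuCAA-1, the tRNA-Leu fragment with the smallest p in this direction, had ratios of 0.46, 0.66 and 0.00 in PS19 and -0.70, 0.24 and -1.06 in WT (difference 0.88 ± 0.42, SE). WT 2 again lay inside the PS19 range. The CLIP signals behind the WT 1 ratios of both fragments were not well above background.

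Groups did not overlap for 2 fragments in the higher direction and 1 in the lower (all RNAs: 4.13% and 4.78%). Without WT 2 there were 9 higher (12.7%) and 13 lower (18.3%), beside 10.8% and 13.4% of all RNAs. The fragments in the higher direction were tRF5-20-IleAAT-5, whose WT values are bounds, and tRF5-22-LeuTAA-2, with ratios of 0.17, 0.32 and 0.51 in PS19 and -0.24, -0.06 and -0.30 in WT (difference 0.53 ± 0.29, SE, limma adjusted p = 0.992). tRF5-20-LeuTAA-4 was the one below, with -0.06, -0.29 and -0.05 in PS19 and 0.44, 0.16 and 0.54 in WT (difference -0.52 ± 0.29, SE). These 2 fragments come from tRNAs with the same anticodon and lay on opposite sides of 0 in each genotype. Within the shared scan their differences kept their signs, at 0.23 and -0.22, but with normexp background correction that of tRF5-20-LeuTAA-4 turned to 0.25.

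At the low end, 5'tiRNA-34-LeuTAA-1 had ratios of -0.65, 0.04 and -0.69 in PS19 and 0.07, -0.01 and 0.51 in WT (difference -0.63, limma adjusted p = 0.992). PS19 2 lay inside the WT range. 5'tiRNA-34-LeuTAA-5 (-0.69) and tRF5-20-LeuTAA-3 (-0.55) followed; with the scan as a fixed block the first turned to 0.23. The 5'tiRNA fragments lay low as a type: their median difference in the ratio was -0.34, with 15 of 21 below 0, against 0.14 for the 45 tRF5 fragments. The 203 tested 5'tiRNA fragments of other nuclear tRNAs had a median of 0.12. By array, the median ratio of the 21 was -0.27, -0.04 and -0.17 in PS19 and -0.02, -0.01 and 0.51 in WT. WT 3, where only 5 of the 21 had a CLIP signal well above background, was the highest. The median of the 21 was -0.22 without WT 3, -0.23 without WT 1 and -0.14 within the shared scan. The median of the tRF5 fragments was 0.02 without WT 3 and -0.09 within the shared scan. The difference between types was not tested.

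The ratio also asks which fragments were enriched in the pull-down over the supernatant of both genotypes. Over all 6 arrays no fragment passed in either direction (limma, lowest adjusted p = 0.307), while 0.227% of all RNAs tested did (0.201% above 0 and 0.0252% below). The median of the 71 was -0.03, beside -0.02 for all RNAs, and single fragments ran from -0.69 to 0.41. An unadjusted p under 0.05 was reached by 0 fragments above 0 and 6 below (all RNAs: 5.82% and 5.69%). No fragment lay above 0 on all 6 arrays and 8 lay below 0 on all 6 (all RNAs: 4.61% and 4.21%). In PS19 alone 0 fragments passed, beside 0.101% of all RNAs, and an unadjusted p under 0.05 was reached by 0 above 0 and 2 below (all RNAs: 3.1% and 3.83%). In WT alone 0 passed, beside 0.0755%, and 1 above 0 and 4 below reached it (all RNAs: 4.36% and 3.63%).

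The fragments with the smallest p below 0 came from both sides of the tRNA. tRF3a-IleTAT-1, a 3' piece, had ratios of -0.53, -0.39 and -1.16 in PS19 and -0.54, -0.22 and -1.30 in WT, all below 0. Its mean of both genotypes was -0.69 ± 0.20 (SE, n = 6; limma adjusted p = 0.307). 3'tiRNA-41-IleTAT-2, the longer 3' piece with the same anticodon, had -0.28, -0.75 and -0.40 in PS19 and -0.37, -1.05 and -0.41 in WT, with a mean of -0.54 ± 0.17 (SE, n = 6; limma adjusted p = 0.328). The other 3'tiRNA, 3'tiRNA-41-IleTAT-1, did not share this, with 0.01, -0.28 and -0.04 in PS19 and 0.27, -0.24 and 0.46 in WT. tRF5-20-LeuAAG-2 had -0.31, -0.71 and -0.61 in PS19 and -0.36, -0.15 and -1.63 in WT (mean -0.63, limma adjusted p = 0.371). 5'tiRNA-34-LeuTAA-3 had -0.38, -0.84 and -0.45 in PS19 and -0.02, -0.63 and -0.51 in WT (mean -0.47, limma adjusted p = 0.363).

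The 3 lengths of this LeuTAA-3 piece, of which the 35- and 36-base forms were chosen after their values were seen, were all below 0 on all 6 arrays. The 35-base form had -0.30, -0.21 and -0.17 in PS19 and -0.19, -0.29 and -0.21 in WT. The 36-base form had -0.35, -0.58 and -0.33 in PS19 and -0.04, -0.24 and -0.58 in WT. The LeuTAA-5 piece lay above 0 on average, with more scatter: 5'tiRNA-34-LeuTAA-5 had 0.02, 0.16 and -0.07 in PS19 and 1.42, -0.21 and 0.98 in WT (mean 0.39, limma adjusted p = 0.534).

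Above 0, tRF5-20-LeuTAA-3 had ratios of -0.15, 0.19 and 0.36 in PS19 and 0.70, 0.19 and 1.14 in WT, with a mean of 0.41 ± 0.18 (SE, n = 6; limma adjusted p = 0.448). tRF5-20-LeuTAA-5 (0.31) and tRF5-25-LeuCAG-3 (0.18) followed. The first was below 0 on PS19 1, and both others were below 0 on WT 2; both turned to about 0 with normexp (-0.0303 and -0.0279).

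**Figure D4:**
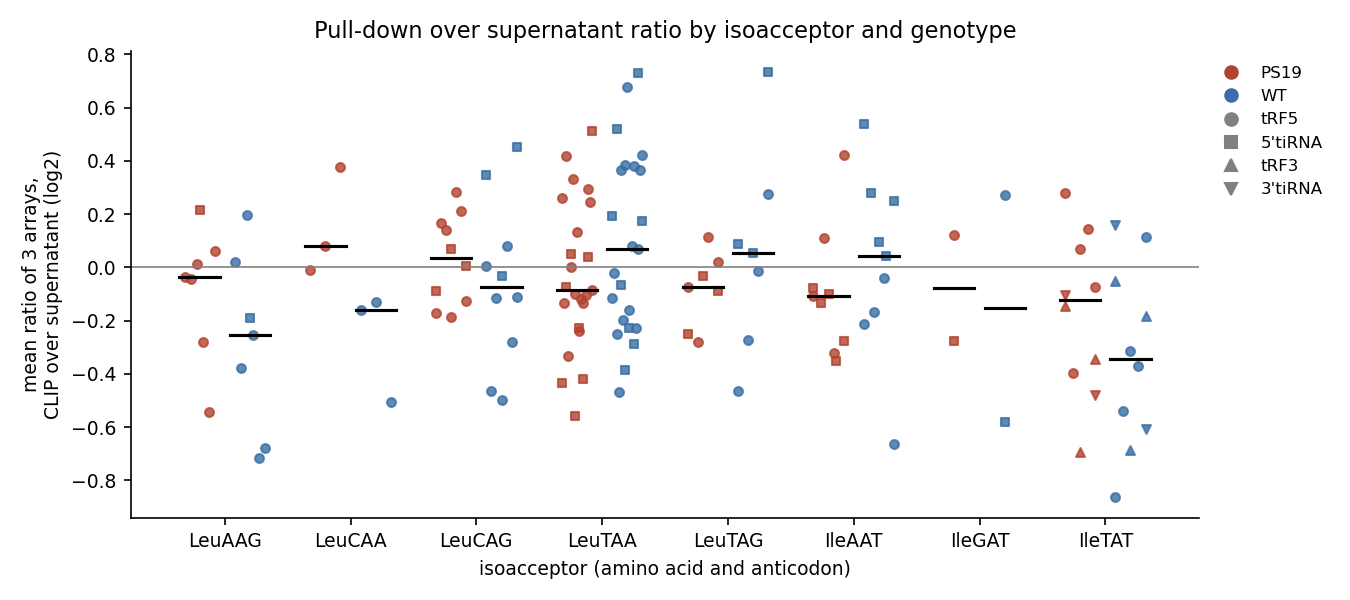
Mean ratio of CLIP over supernatant (log2, centred on the median RNA, 3 arrays per point) of each fragment by isoacceptor, PS19 in red on the left and WT in blue on the right of each isoacceptor; marker shapes give the fragment type and black lines the median. Points lie on both sides of 0 in every isoacceptor with more than 3 fragments, and IleTAT holds the lowest.

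By isoacceptor, the median over fragments of the ratio averaged over both genotypes was lowest for LeuAAG (-0.21, 7 fragments) and IleTAT (-0.19, 10 fragments), and highest for LeuTAA (0.07, 23 fragments). The others were IleAAT (-0.03), IleGAT (-0.12), LeuCAA (-0.06), LeuCAG (-0.01) and LeuTAG (0.01). By array, the median ratio of IleTAT was -0.35, -0.29 and -0.07 in PS19 and -0.26, -0.23 and -0.74 in WT, below 0 on each. LeuTAA had -0.10, -0.21 and 0.14 in PS19 and -0.04, -0.02 and 0.45 in WT, with WT 3 the highest. These medians differ by less than the range of one isoacceptor over arrays, and they were not tested.

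Of the 4 tRF5 fragments of IleAAT, 1 was well above background in the CLIP channel of WT 2, the array that measured all 15 tRF5 fragments of LeuTAA. The other 3 were not well above background on any WT array, so no median CLIP difference is given for them. The one measured, tRF5-20-IleAAT-1, had a CLIP difference 0.05 above the median RNA within the shared scan. Within that scan the 5 5'tiRNA fragments of the same isoacceptor had a median CLIP difference at -0.005 relative to the median RNA. Over all 6 arrays their median difference, PS19 minus WT, was 0.26 below the median RNA (log2 value -0.26). There, 0 of the 5 were well above background in the CLIP channel of WT 1 and 2 in that of WT 3. In the supernatant the IleAAT tRF5 fragments lay 0.73 above the median RNA and the 5'tiRNA fragments 0.35. Of those 4 tRF5 fragments, 2 were well above background in the supernatant of WT 1 and 0 in that of WT 3. Within the shared scan, where all 4 were measured, the values were 0.37 and 0.09. The 15 tRF5 fragments of LeuTAA lay 0.07 below the median RNA in the CLIP level (log2 value -0.07) and at 0.00 in the supernatant. LeuTAA also had the most fragments detected in the CLIP channel of WT 3, 14 of 23, against 5 of 10 for IleTAT, 1 of 7 for LeuAAG and 0 of 7 for LeuTAG. Of the fragments of other nuclear tRNAs 346 of 695 were detected there, and of all RNAs on the array 13.7%.

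Nested lengths of 1 tRNA end were set side by side. There were 22 sets of 2 or more lengths, holding 60 fragments. The median absolute gap in the genotype difference of the ratio between 2 lengths of a set was 0.468 (55 pairs), beside 0.519 between fragments of the same type from different sets (1146 pairs). The examples that follow were chosen after their values were seen. In the genotype difference of the ratio, LeuAAG-2 had -0.03, 0.17 and 0.74 for 18, 20 and 22 bases, and LeuCAA-1 had 0.15, 0.21 and 0.88. LeuTAA-5 tRF5 fragments ran the other way, with 0.22, -0.12 and -0.51. Other sets lay close together: in the CLIP level, LeuTAA-1 tRF5 fragments had differences of 1.25, 1.33 and 1.23 for 18, 20 and 22 bases. By length, tRF5 fragments of 18 bases (12 fragments), 20 bases (16) and 22 bases (14) had median differences in the CLIP level of 0.15, 0.55 and 0.32 above the median RNA, and of -0.15, 0.03 and 0.03 within the shared scan.

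For each isoacceptor, 1 widely detected fragment is given, and none passed a test. tRF5-22-LeuTAA-4 was measured in the CLIP channel on 3 PS19 and 2 WT arrays and in the supernatant on all 6. Its CLIP levels were -2.67, -4.00 and -4.35 in PS19 and -5.41, -3.09 and -4.85 in WT, and the ratios were 0.02, -0.21 and -0.13 in PS19 and -0.42, -0.18 and -0.08 in WT (difference 0.12 ± 0.29, SE). tRF5-25-LeuCAG-3 had ratios of 0.20, 0.14 and 0.51 in PS19 and 0.15, -0.13 and 0.22 in WT (difference 0.20 ± 0.30, SE). For 5'tiRNA-37-IleAAT-1, tRF5-20-IleGAT-1, 3'tiRNA-41-IleTAT-1, tRF5-22-LeuAAG-1, tRF5-18-LeuCAA-1 and tRF5-18-LeuTAG-3 the difference in the ratio lay between -0.26 and 0.15, each smaller than its standard error, which does not show that the genotypes were equal.

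The 3 full-length tRNA-Leu probes were set beside the fragments, and they did not behave alike. Leu-CAA-3 had ratios of 0.65, 0.78 and 0.32 in PS19 and 3.28, 0.93 and 1.90 in WT, above 0 on all 6 arrays and without overlap between the genotypes. Of all RNAs tested, 4.61% lay above 0 on all 6 arrays and 4.78% were lower in PS19 without overlap. Its mean of both genotypes was 1.31 (limma adjusted p = 0.214) and its difference was -1.45 (limma adjusted p = 0.992). Leu-CAG-4 had 0.32, 0.52 and 0.12 in PS19 and 1.35, 0.89 and 0.48 in WT (mean 0.61, limma adjusted p = 0.298). Leu-AAG-1 scattered about 0, with -0.40, -0.14 and 0.10 in PS19 and -0.25, -0.29 and 0.45 in WT. No full-length tRNA-Ile was among the names. The difference between full-length tRNAs and fragments was not tested.

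The authors' deposited table compares the CLIP channel alone, PS19 over WT. In the authors' deposited table, 48 of the 71 fragments have a positive and 23 a negative log2 fold change, with a median of 0.23 beside 0.041 for all its names. In the authors' deposited table, 3 of the fragments have a p under 0.05, namely tRF5-20-IleAAT-5 (log2 fold change 1.61, p = 0.043), tRF5-22-LeuCAA-1 (1.16, p = 0.046) and tRF5-20-IleAAT-1 (0.91, p = 0.049). The adjusted p in the authors' deposited table is 0.999 for each of them.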

How the data were processed

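Pull-down (Cy5, red) and supernatant (Cy3, green) RNA of each sample was read on 1 array. Per the file headers, intensity values were made with Agilent Feature Extraction 11.0.1.1, whose processed signal has background subtracted and dyes normalised before the authors deposited it. The deposited value table holds log2 values equal to the log2 red processed signal minus 1 offset per array. The authors' deposited table of 2380 names gives log2 fold changes and p-values. How its names were filtered is not given in the sources used here. Names were linked to probes by agreement of the fold change to 1e-09 and of the p-value to 1e-07 with a recomputation on the value table; each of the 2380 matched exactly 1 of 557616 candidate probe sets, with the sign PS19 minus WT.

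Control spots and spots marked as outliers were left out (none of the 71 fragments had one), no spot was saturated, and probes of the same RNA were averaged. Levels are log2 processed signals minus the array's 75th percentile over RNAs well above background on all 6 arrays (550 red, 1703 green); the ratio is log2 red over green minus its median over the RNAs tested. All RNAs that exceeded background well on at least 3 arrays (for the ratio, in red or in green) entered 1 limma 3.58.1 model (lmFit, eBayes; R 4.3.3) with a mean for each genotype. An RNA passed at an adjusted p under 0.05 (Benjamini-Hochberg). An RNA not well above background on any array of a genotype has only a bound, set on each array by its own signal or the dimmest probe well above background, whichever was higher. The fit was tested on simulated data with independent noise of the same size for all RNAs. Those data did not hold the correlation within scans or signals at background level, so the test does not cover them.

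Named fragments are up to 4 of smallest p in each direction of a comparison, those detected in 1 genotype only, and 1 widely detected fragment per isoacceptor. The fragments and lists were chosen with earlier results of these data known. Alternatives covered background correction, scaling, filters, variance model, array weights, scan blocks, the replicate block and left-out arrays; leaving out arrays for the counts of groups without overlap and for the ratio by fragment type, centring over all probes and a filter on both channels were chosen after seeing the data.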

Additional observations from a re-analysis of the deposited data

How the results depend on the processing

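The number of arrays and the low signal over background in red limit all values. None of the 71 fragments was called under any alternative, except tRF5-20-IleAAT-5 in the CLIP level with the scan as a random block (1 called), whose WT signals there were not well above background. Relative to the median RNA, the median CLIP difference of the fragments (0.18) was -0.00327 with normexp background correction, 0.56 with no filter on dim probes and 0.0289 with the scan as a fixed block; the supernatant difference (0.31) was 0.0132 with normexp, 0.12 with array weights and 0.10 with the scan as a fixed block. The ratio difference (0.01) was -0.10 with loess, 0.20 with no filter and -0.11 with the scan as a fixed block, and the mean ratio (-0.01) was -0.12 with no filter and -0.0748 with a filter on both channels. Leaving out single arrays gave 0.08 to 0.28 in the CLIP level, 0.13 to 0.41 in the supernatant, -0.0523 to 0.0495 in the ratio difference and -0.0685 to 0.0188 in the mean ratio, with 0 called in each. The cause of these shifts was not tested, but the offset that normexp adds, 50, exceeds each array's median raw signal, which compresses dim RNAs.

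Counts at an unadjusted p under 0.05 moved more, as did those of all RNAs. In the CLIP level 3 fragments (4.23%) were higher beside 1.91% of all RNAs, against 7 (9.86%) beside 5.77% with the scan as a random block, 30 (42.3%) beside 32.5% with array weights and 42 (59.2%) beside 41.8% without WT 2; in the supernatant 1 (1.41%) was higher beside 1.74%, against 44 (62%) beside 46% with normexp.

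Signs turned for named fragments whose differences were small or whose signal was dim. With normexp the CLIP differences of tRF5-20-IleAAT-5, tRF5-20-IleTAT-1 and tRF5-22-LeuAAG-2 were -0.0349, -0.00691 and -0.0174; the supernatant differences of 3'tiRNA-41-IleTAT-1, tRF3-19-IleTAT-2, tRF3b-IleTAT-1 and tRF5-22-LeuTAA-1 were 0.32, 0.32, 0.25 and 0.37; the ratio differences of tRF5-20-LeuTAA-3 and tRF5-20-LeuTAA-4 were 0.0739 and 0.25; and the mean ratios of tRF5-20-LeuTAA-5 and tRF5-25-LeuCAG-3 were -0.0303 and -0.0279. With no scaling the supernatant differences of 3'tiRNA-41-IleTAT-1, tRF3-19-IleTAT-2, tRF3b-IleTAT-1 and tRF5-22-LeuTAA-1 were 0.71, 0.67, 0.51 and 0.66. For 3'tiRNA-41-IleTAT-1 it was 0.17 with array weights, 0.11 and 0.0243 with the scan as a fixed and a random block, and -0.24 to 0.13 without single arrays; for tRF3b-IleTAT-1 it was 0.0181 with array weights and 0.10 with the fixed block; for tRF5-22-LeuTAA-1 it was -0.25 to 1.3e-05 without single arrays. With the scan as a fixed block, which equals PS19 1 minus WT 2, the ratio differences of 5'tiRNA-34-LeuTAA-5 and tRF5-20-IleTAT-1 were 0.23 and -0.13.

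Replicate numbers are shared by the groups, but same-numbered arrays did not deviate together: in the CLIP level the correlations of their deviations were -0.08, -0.52 and 0.32 for numbers 1 to 3. With the replicate block no fragment was called, and the medians relative to the median RNA were 0.18, 0.30, 0.01 and -0.01 for the CLIP level, the supernatant, the ratio difference and the mean ratio, while the calls over all RNAs in the mean ratio were 3, against 9 without it. As no fragment exceeded background well in red on every array, that filter gave no CLIP value, and the scan as a fixed block gave none for the mean ratio.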
